A study of Rattus norvegicus with 24 samples.

Results

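RNA splicing factor genes were followed in peripheral blood mononuclear cells (PBMC) of rats. They were taken as all genes whose symbol begins with Srsf, Snrp, Sf3a, Sf3b, Hnrnp, U2af or Prpf and that had a probe set assigned to 1 gene only in the platform annotation. This gave 61 genes with 100 probe sets, out of 14218 genes with such a probe set and 31099 probe sets on the array. There were 11 Srsf, 10 Snrp, 9 Sf3a or Sf3b, 3 U2af, 11 Prpf and 17 Hnrnp genes. Each gene was read at its brightest probe set, the one with the highest mean over all arrays. All 61 were found in the RefSeq gene table and 60 of them are protein coding there, the other being the pseudogene Srsf7-ps4. Hnrnpk, Snrpc and Snrpg had only probe sets shared with other genes and were left out. Srsf3 and Snrpn also had shared probe sets, which were left out, so each was read at the 1 probe set that remained.

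Splicing removes introns from precursor messenger RNA. The spliceosome is built on introns from small nuclear ribonucleoproteins (snRNPs): Snrp genes encode their Sm core rings and other subunits, Sf3a and Sf3b genes the part of the U2 snRNP that holds the branch point, U2af genes the factor that reads the end of the intron, and Prpf genes proteins of the U4/U6 and U5 snRNPs and of spliceosome activation. The serine and arginine rich proteins of the Srsf genes mostly promote, and the heterogeneous nuclear ribonucleoproteins of the Hnrnp genes often repress, the use of nearby exons. In lymphocytes these factors set which isoforms of surface receptors and signalling proteins are made, CD45 being the textbook case.

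The cells came from female Wistar rats, 24 in all, with 2 rats in each of 12 groups and 1 array per rat. Healthy rats (NOCIA) and rats with collagen-induced arthritis (CIA, raised with bovine type II collagen in Freund's adjuvant) were sampled at baseline. NOCIA rats and 4 arms of CIA rats were sampled early, at 1 hour, and late, at 34 days of therapy: MS (mechanical stimulation with a needle, labelled AP), MTX (weekly methotrexate injected into the peritoneum), PLA (saline injection) and ANE (an anaesthetic control, with isoflurane at sampling in place of the ether used in MS, MTX and PLA). Every rat was killed at sampling, so no rat was measured at both times, and all PBMC were stored and extracted together. Values are log2 levels from robust multi-array averaging (RMA), a difference is a log2 difference between group means with its standard error (SE) from limma, and n = 2 rats per group throughout. Genes were called where the p-value, adjusted by Benjamini-Hochberg over the 20690 probe sets tested, was under 0.05. Of the 61 genes 59 were tested, and Snrpn and Srsf7-ps4 were too dim. In such mixed cells a lower level can mean fewer cells of a type or less RNA per cell, which cannot be told apart here.

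Before any comparison, 2 arrays stood apart. Centred on each gene's own mean, the median splicing gene lay at -0.85 in MS 34-day rat 1 and at -0.64 in MS 1-hour rat 1, while the other 22 arrays ran from -0.27 to 0.34. The second rat of each of these groups lay at 0.00 and 0.34. MS 34-day rat 1 had the lowest level of 42 of the 61 genes and MS 1-hour rat 1 that of 11. NOCIA 34-day rat 1, at 0.32, held the highest level of 23. Only 7 of the 61 genes were higher in rat 1 than in rat 2 of MS at 34 days and 4 at 1 hour, while CIA baseline (medians of 0.12 and 0.24) and NOCIA baseline (-0.01 and 0.04) had close pairs.

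The markers expected of PBMC were present, with T cell Cd3e at 9.74 to 11.97 over the arrays, B cell Cd79b at 7.28 to 10.16 and monocyte Lyz2 at 12.90 to 14.55. Platelet Pf4, at 14.22 to 14.71, and neutrophil S100a9, at 10.33 to 14.56, were present as well. Platelet and lymphocyte markers moved with the 2 arrays that stood apart. The median of 8 platelet markers, such as Pf4 and Itga2b, was 1.74 in MS 34-day rat 1 and 0.55 in rat 2, and 1.55 and -0.49 in the MS rats at 1 hour. It was also high in ANE 1-hour rat 1 (1.33) and PLA 1-hour rat 2 (1.25), where the median splicing gene was at -0.15 and -0.27. T cell markers (8 genes, such as Cd3e and Lck) lay at -1.60 and -0.27 in the MS rats at 34 days and at -1.08 and 0.38 at 1 hour. The part of platelets or of cell mix in the levels of the splicing genes was not tested.

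**Figure D1:**
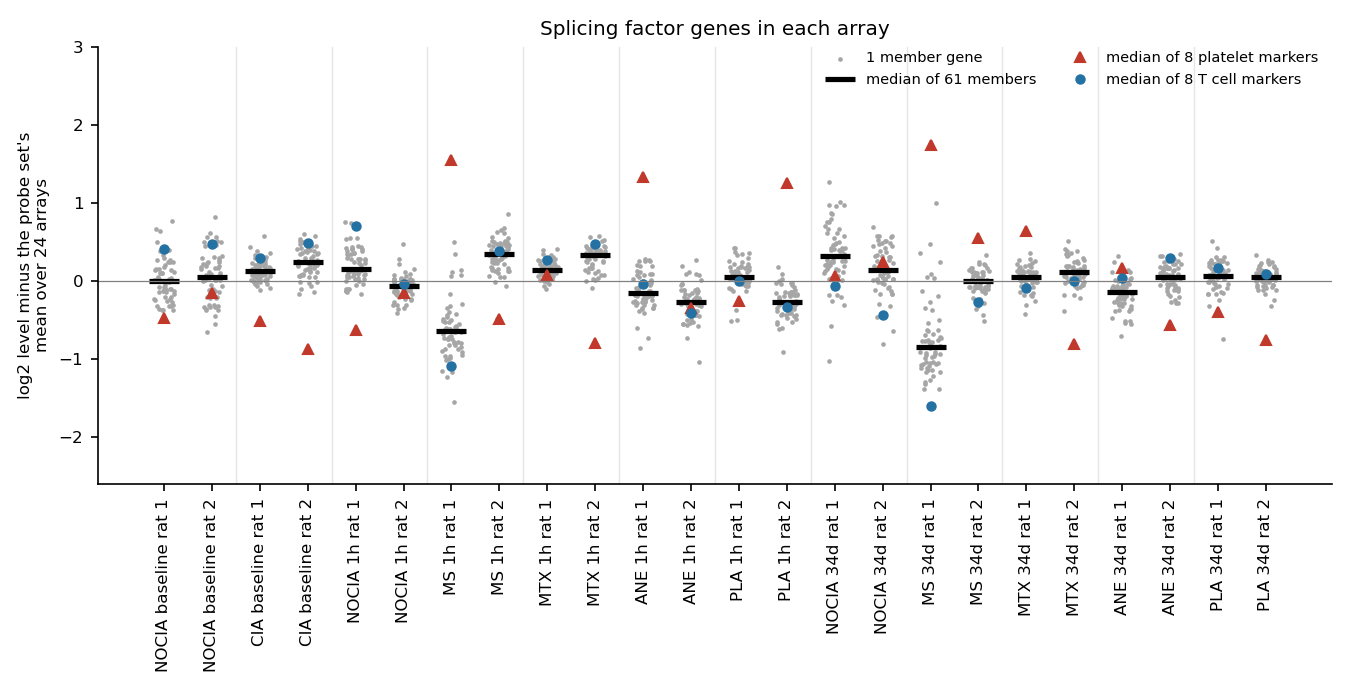
Log2 level of each of the 61 splicing factor genes minus its mean over 24 arrays (vertical axis, grey points) in each rat (horizontal axis), with the median of the genes (black bars) and of 8 platelet and 8 T cell markers (triangles and circles). The black bar falls to -0.85 in MS 34-day rat 1 and -0.64 in MS 1-hour rat 1, where the platelet markers stand at 1.74 and 1.55.

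The first comparison set MS rats at 34 days against CIA baseline rats, which were sampled before any therapy. It spans both the needle treatment and 34 days of time with arthritis, which cannot be told apart here. The genes Srsf6 and Srsf9 fell, and no splicing gene rose. That is 2 of 59 called (3.39%), beside 6.96% of all probe sets tested (5.44% lower and 1.52% higher). At an unadjusted p under 0.05 there were 24 of 59, beside 37.1%. Most of the genes lay below 0: 56 of 61 were below 0, with a median of -0.59 against -0.16 for all probe sets tested. By family the median was -0.79 for Hnrnp, -0.73 for Srsf, -0.59 for Sf3a and Sf3b, -0.53 for U2af, -0.52 for Snrp and -0.50 for Prpf. MS rat 1 set most of this size. Without it the median was -0.15, and without rat 2 it was -1.05. Both fits leave 1 MS rat. Calls ended over the whole array without rat 1 and became many more over the whole array without rat 2. With array weights, or with only the groups compared in the fit, 0 genes were called, beside 0% of all probe sets. The 8 platelet markers were all above 0 in MS (median 1.98, 0 called by limma and 6 at an unadjusted p under 0.05). All 8 T cell (-1.38), 4 B cell (-1.69), 6 NK cell (-1.60) and 5 monocyte markers (-0.69) were below 0, of which 3 T cell and 4 B cell markers were called. Their part in the result was not tested.

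Srsf6, which encodes a serine and arginine rich activator of exons, read 8.80 and 9.95 in the MS rats and 10.61 and 10.76 in the CIA baseline rats. Srsf9, its smaller relative, read 6.22 and 6.84 against 7.63 and 7.82. In both genes every MS rat lay below both CIA baseline rats. Srsf6 differed by -1.31 ± 0.36 (limma adjusted p = 0.0453) and Srsf9 by -1.20 ± 0.21 (adjusted p = 0.0213). Without MS rat 1 the differences were -0.73 for Srsf6 and -0.89 for Srsf9. Without CIA baseline rat 1 or rat 2 they were -1.39 and -1.24 for Srsf6, and -1.29 and -1.10 for Srsf9. Both calls ended in each of these fits, which leave 1 rat in a group, as did all calls over the array. Neither gene was called with array weights (limma adjusted p = 0.200 for each) or with only the groups compared in the fit (0.342 for each).

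The next lowest genes were mostly Hnrnp genes, and none passed the test at its brightest probe set. Hnrnpu and Hnrnpa2b1 each had a dimmer probe set that was called, as given further below. Hnrnpa0, a binder of AU-rich RNA, read 9.83 and 11.02 in MS and 11.40 and 11.58 in CIA baseline, a difference of -1.06 ± 0.36 (adjusted p = 0.0676). Hnrnpr read 8.74 and 9.96 against 10.29 and 10.49, and Hnrnpu, which binds chromatin-associated RNA, 10.17 and 11.17 against 11.44 and 11.86. In each of these the first MS rat was far below the second, which was itself below both CIA baseline rats. Hnrnpab (-0.93 ± 0.36), Hnrnpa2b1 (-0.93 ± 0.30), Srsf5 (-0.91 ± 0.41), Snrpd1 of the Sm core (-0.91 ± 0.41) and Hnrnpul1 (-0.89 ± 0.34) completed the 10 lowest. Hnrnpul1 and Hnrnpa2b1 differed from the rest in that both MS rats were about equally low. Hnrnpul1 read 6.82 and 7.07 against 7.94 and 7.72, and Hnrnpa2b1 10.27 and 10.64 against 11.20 and 11.56.

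Of the core spliceosome genes, none was called in MS. In the U2 snRNP, Sf3b3, the scaffold of SF3B, came closest to the threshold with 8.14 and 8.95 in MS against 9.40 and 9.40 (-0.86 ± 0.26, adjusted p = 0.0562), and Sf3a1 read 6.78 and 7.42 against 7.99 and 7.75 (-0.77 ± 0.26, adjusted p = 0.0662). Both MS rats lay below both CIA baseline rats in each. Sf3b1, which clamps the branch point, read 10.62 and 11.60 against 11.63 and 12.03 (-0.72 ± 0.33). Among Sm core genes Snrpe read 11.23 and 12.38 against 12.58 and 12.72 (-0.85 ± 0.33). Snrpb read 9.75 and 10.86 against 10.89 and 10.81 (-0.55 ± 0.30), where the second MS rat lay within the CIA baseline pair. The U2AF large subunit gene U2af2 differed by -0.53 ± 0.25, the U5 gene Prpf8 by -0.58 ± 0.32 and Prpf19, a ubiquitin ligase of the activated spliceosome, by -0.47 ± 0.32.

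A few genes did not follow the others. U2af1l4, a paralogue of the small subunit of U2AF, read 8.37 and 7.99 in MS and 7.95 and 7.72 in CIA baseline (0.35 ± 0.16, adjusted p = 0.137). Sf3b5, the smallest SF3B protein, read 10.55 and 10.33 against 10.24 and 10.24 (0.20 ± 0.15, adjusted p = 0.323). Both had their highest reading of all 24 arrays in MS rat 1, where most splicing genes were lowest. Hnrnpll, which drives skipping of CD45 exons in activated mouse and human T cells, read 6.66 in MS rat 1, the highest of all 24 arrays, and 5.30 in rat 2, against 5.97 and 5.82. Its difference of 0.08 ± 0.37 turned to -0.60 without rat 1. Srsf7 (0.12 ± 0.24) and the U4/U6 gene Prpf3 (-0.0031 ± 0.23) lay near 0, and the sign of Srsf7 turned without rat 2 (-0.06) and that of Prpf3 without rat 1 (0.30).

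**Figure D2:**
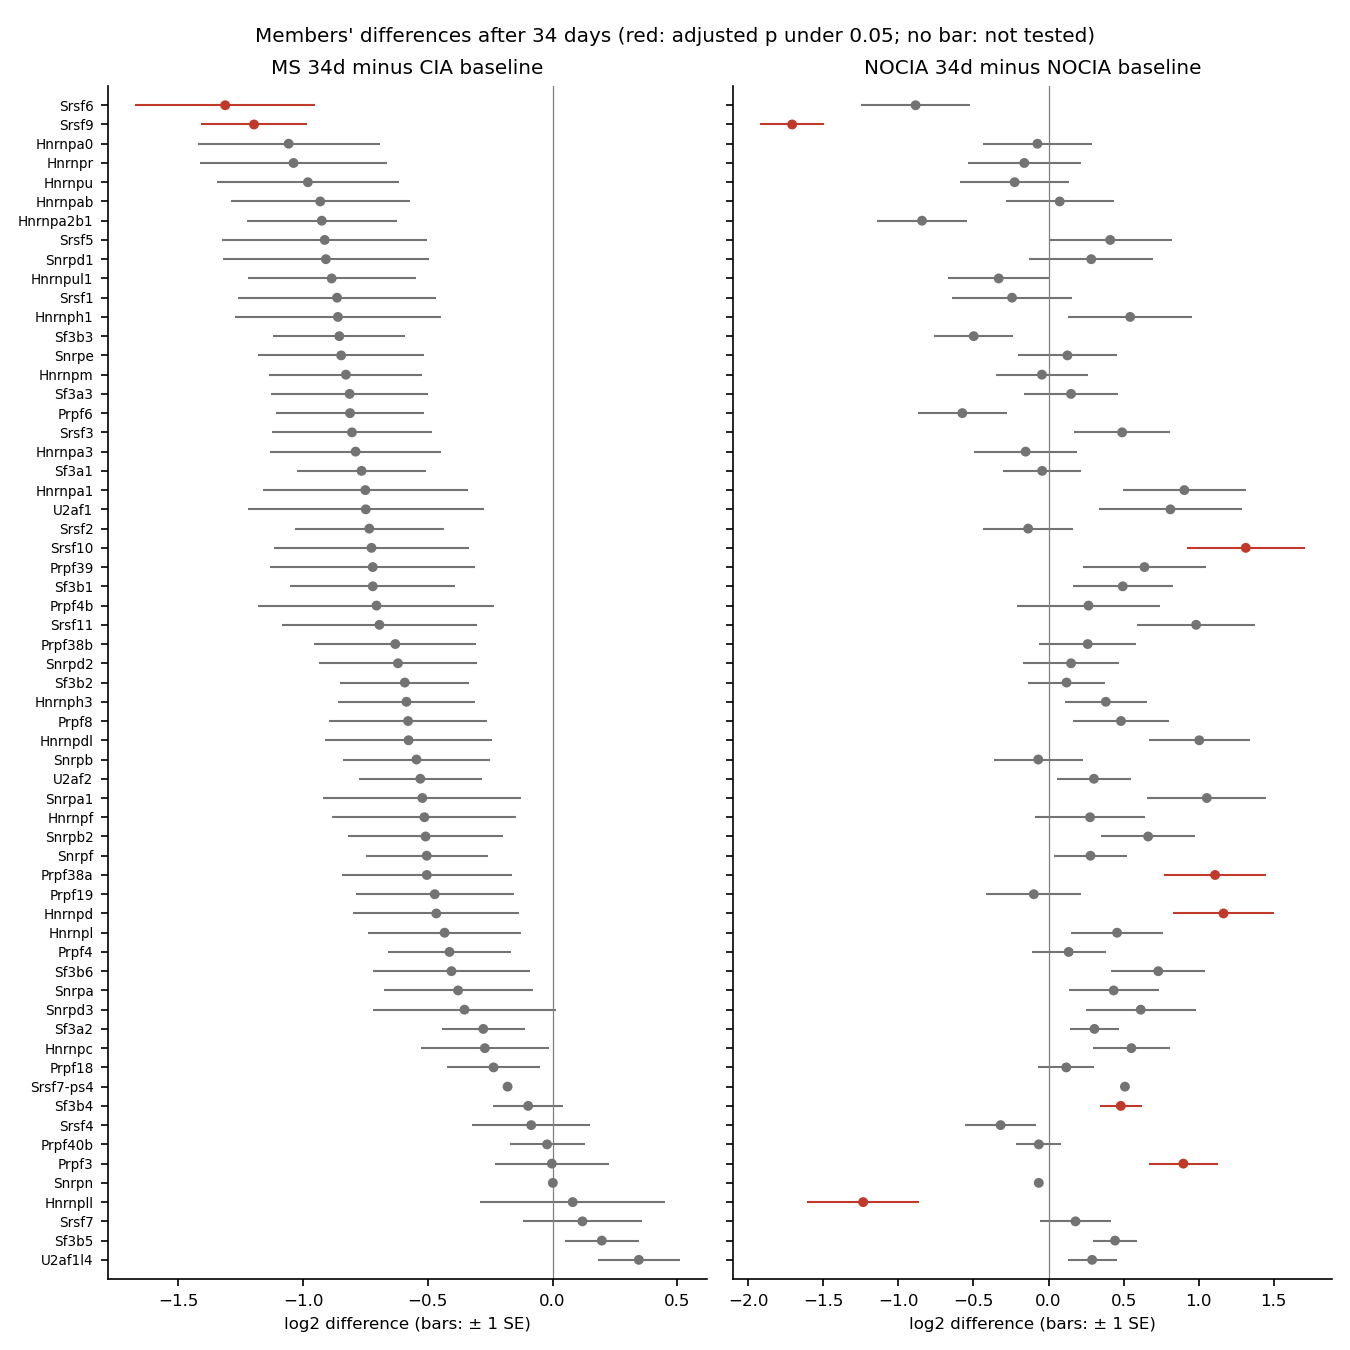
Log2 difference of each splicing factor gene (points, with bars of 1 SE) in MS at 34 days against CIA baseline (left) and in NOCIA at 34 days against NOCIA baseline (right), genes in the order of the left panel. On the left 56 of 61 points lie below 0 and Srsf6 and Srsf9 are called (red); on the right 41 lie above 0 and 7 genes are called, 5 higher and 2 lower.

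Against the other arms at 34 days no splicing gene was called by limma. For MS against PLA the median was -0.49 (all probe sets -0.15) and 7 of 59 genes had an unadjusted p under 0.05, beside 0% of all probe sets called and 23.2% at that unadjusted p. For MS against MTX it was -0.51 (-0.14), with 8 of 59 genes, beside 0% and 14.4%. Without MS rat 2 many calls appeared over the whole array in both comparisons, splicing genes among them, and without MS rat 1 none did. U2af1, the small U2AF subunit that reads the AG at the end of the intron, had the largest difference in both. It read 8.83 and 10.39 in MS, 10.64 and 10.46 in PLA, and 10.27 and 10.74 in MTX. The second MS rat was within the range of the MTX rats, and the differences of -0.94 ± 0.47 from PLA and -0.89 ± 0.47 from MTX rested on the first. MTX against PLA gave a median of 0.02 and 0 genes at either threshold, beside 0% and 0.739%. The largest value there was 0.32 ± 0.39 for Srsf10.

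In the other CIA arms the differences from CIA baseline at 34 days were smaller. The median was -0.23 in ANE (58 of 61 below 0), -0.11 in PLA (46 of 61) and -0.10 in MTX (42 of 61), against -0.04, -0.02 and -0.01 for all probe sets. By limma 0 genes were called in each, beside 0% of all probe sets called in each. An unadjusted p under 0.05 was reached by 0 genes in ANE (1.48% of all probe sets), 0 in PLA (4.85%) and 1 in MTX (5.85%), which was Srsf9. In MTX Srsf9 read 7.04 and 7.12, below both baseline rats, a difference of -0.65 ± 0.21 (adjusted p = 0.650). Other large values were Hnrnpll in PLA (4.92 and 5.34, -0.77 ± 0.37), Hnrnpa2b1 in MTX (10.78 and 10.77, -0.60 ± 0.30) and Hnrnpf in ANE (9.58 and 10.06, -0.57 ± 0.37). These arms share the baseline rats, so their like signs are not independent.

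**Figure D3:**
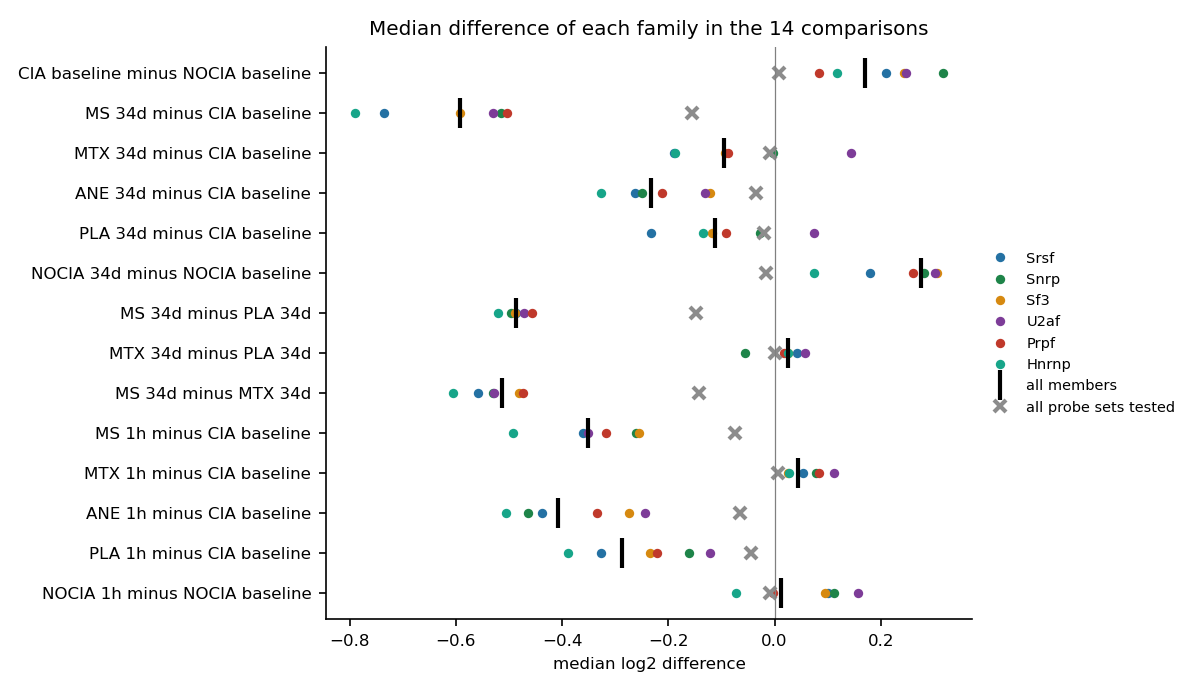
Median log2 difference (horizontal axis) of the 6 gene families (coloured points), of all 61 genes (black bars) and of all probe sets tested (grey crosses) in the 14 comparisons (vertical axis). All genes together stand at -0.59 in MS at 34 days against CIA baseline and at 0.28 in NOCIA at 34 days against NOCIA baseline, with crosses at -0.16 and -0.02.

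In healthy rats the splicing genes split over the same 34 days. Compared with NOCIA baseline, 5 genes rose (Srsf10, Hnrnpd, Prpf38a, Prpf3 and Sf3b4) and 2 fell (Srsf9 and Hnrnpll), which is 7 of 59, beside 12% of all probe sets called (6.31% higher, 5.66% lower). At an unadjusted p under 0.05 there were 17 of 59, beside 24.3%. Both shares were near those of the array. The median was 0.28, with 41 of 61 genes above 0, against -0.02 for all probe sets, and by family it ran from 0.07 for Hnrnp to 0.31 for Sf3a and Sf3b. NOCIA 34-day rats had lower B cell markers than baseline rats (all 4 called, median -1.88), lower NK cell markers (6 of 6 lower, 2 called, -1.75) and lower T cell markers (8 of 8, 1 called, -0.58), while platelet markers differed by a median of 0.42. Neutrophil markers did not all move alike. S100a8 read 11.72 and 11.25 against 10.47 and 10.13 at baseline, and S100a9 13.22 and 12.84 against 12.28 and 11.99. Mmp9, also a neutrophil marker, read 6.31 and 5.85 against 6.32 and 6.23. Erythroid markers differed between the later rats. Alas2 read 10.85 and 12.31 against 12.32 and 12.51 at baseline, and Slc4a1 9.48 and 11.41 against 11.40 and 11.40. In both genes NOCIA 34-day rat 1 was the lowest of all 24 arrays. Rhag, also an erythroid marker, read 8.31 and 8.40 against 8.09 and 8.25. Whether these shifts in cell mix have a part in the splicing genes was not tested.

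Srsf10, an unusual SR protein that becomes a general repressor of splicing when dephosphorylated after heat shock, read 9.83 and 9.25 in the NOCIA rats at 34 days and 8.24 and 8.21 at baseline (1.31 ± 0.39, adjusted p = 0.0396). Hnrnpd (AUF1), which marks messages with AU-rich elements for decay, read 10.43 and 9.95 against 9.14 and 8.91 (1.16 ± 0.33, adjusted p = 0.0320). Prpf38a, needed to activate the assembled spliceosome, read 9.48 and 9.10 against 8.20 and 8.16 (1.11 ± 0.34, adjusted p = 0.0455). Both later rats were above both baseline rats in all of these, and rat 1 was the higher each time. Prpf3, a U4/U6 snRNP protein, rose from 8.27 and 8.49 to 9.43 and 9.13 (0.90 ± 0.23, adjusted p = 0.0182). Sf3b4, a U2 snRNP protein that contacts RNA near the branch point, rose less, from 8.67 and 8.62 to 9.21 and 9.05 (0.48 ± 0.14, adjusted p = 0.0362). Just outside the threshold were Sf3b5 (0.44 ± 0.15, adjusted p = 0.0638), Hnrnpdl (1.00 ± 0.34, adjusted p = 0.0653) and Snrpa1 (1.05 ± 0.40, adjusted p = 0.103).

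Srsf9 fell most, from 8.11 and 8.16 to 6.32 and 6.53 (-1.71 ± 0.21, adjusted p = 0.000285), and Hnrnpll from 6.30 and 6.28 to 5.08 and 5.02 (-1.23 ± 0.37, adjusted p = 0.0409). In both genes the groups were far apart compared with the spread within either pair. For Hnrnpll such close pairs were not the rule. Over all groups its SD within groups was 0.40, and the SD of its group means was 0.37. Its readings in the NOCIA 34-day rats were also dim. They lay below the medians of their arrays (5.48 and 5.51) and just above the filter levels for low values (4.86 and 4.91). Srsf9 was called with any 1 of the 4 rats left out, where its difference lay between -1.81 and -1.60. The other 6 lost the call whichever rat was left out, except Prpf3, which kept it without NOCIA 34-day rat 2. These fits leave 1 rat in a group, and calls over the whole array became fewer in each of them. Among the other 6 the differences stayed between 0.40 (Sf3b4) and 1.60 (Srsf10) for those that rose. With no filter on low values Srsf10 (adjusted p = 0.051), Hnrnpll (0.0519) and Prpf38a (0.0569) lost the call, after quantile normalization Hnrnpll (0.0711) and Sf3b4 (0.0925), and with limma-trend and robust eBayes Sf3b4 (0.0709). Without the 4 arrays of highest platelet level, none of them from NOCIA rats, 26 genes were called, 20 higher and 6 lower and the same 7 among them, where 30.4% of all probe sets were called.

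The upstream sequence of the genes is shown for a pair that fell in at least 1 comparison (Srsf9 and Srsf6) and a pair that rose in NOCIA rats (Srsf10 and Hnrnpd). Each is 300 bases of RefSeq sequence on rat build GRCr8, mostly upstream of the gene's start and ending just past it, 5′ to 3′ along the gene: chr12:46945098-46945397 on the - strand, chr3:172008822-172009121 on the + strand, chr5:153372066-153372365 on the + strand and chr14:9919507-9919806 on the + strand. Capitals mark the motifs searched on both strands, which were CCGGAAG (the core read by ETS factors), CCAAT (the box read by NF-Y), TATAAA (the TATA box), GCGCATGCG (the core read by NRF1) and AAGATGGCG (the core read by YY1).
Srsf9: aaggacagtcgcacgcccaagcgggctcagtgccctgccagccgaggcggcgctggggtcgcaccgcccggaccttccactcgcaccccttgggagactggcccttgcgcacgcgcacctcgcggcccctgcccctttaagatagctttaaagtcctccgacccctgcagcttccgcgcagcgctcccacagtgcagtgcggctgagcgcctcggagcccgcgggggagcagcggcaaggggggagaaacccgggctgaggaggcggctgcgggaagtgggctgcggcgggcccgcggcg
Srsf6: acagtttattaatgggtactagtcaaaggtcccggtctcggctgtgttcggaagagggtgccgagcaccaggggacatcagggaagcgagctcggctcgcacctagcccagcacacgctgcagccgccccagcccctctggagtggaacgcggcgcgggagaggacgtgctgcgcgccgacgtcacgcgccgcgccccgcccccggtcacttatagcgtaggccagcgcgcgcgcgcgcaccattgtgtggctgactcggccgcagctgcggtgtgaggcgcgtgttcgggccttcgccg
Srsf10: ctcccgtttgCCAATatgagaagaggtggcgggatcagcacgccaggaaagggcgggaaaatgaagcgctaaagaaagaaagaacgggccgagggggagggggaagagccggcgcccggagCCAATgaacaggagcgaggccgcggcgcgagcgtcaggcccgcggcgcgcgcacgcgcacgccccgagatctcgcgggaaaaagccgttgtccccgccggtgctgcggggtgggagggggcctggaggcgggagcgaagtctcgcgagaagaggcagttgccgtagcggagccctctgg
Hnrnpd: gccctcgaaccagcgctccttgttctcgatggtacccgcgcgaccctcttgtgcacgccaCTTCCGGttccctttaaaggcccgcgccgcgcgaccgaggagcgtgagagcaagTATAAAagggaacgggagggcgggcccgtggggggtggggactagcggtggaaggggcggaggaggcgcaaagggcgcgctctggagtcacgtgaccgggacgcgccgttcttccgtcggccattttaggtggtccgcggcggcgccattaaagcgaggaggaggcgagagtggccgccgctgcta
Srsf9 and Srsf6 held none of the 5 motifs in this window, Srsf10 held CCAAT at bases 11 to 15 and 122 to 126, and Hnrnpd held CCGGAAG on the opposite strand at bases 61 to 67 and TATAAA at 115 to 120. All 61 genes had such a window. CCGGAAG was in 31.1% of them against 8.75% of all 33469 windows, CCAAT in 55.7% against 37.5%, TATAAA in 11.5% against 14.2%, GCGCATGCG in 6.56% against 1.52% and AAGATGGCG in 3.28% against 1.73%. The splicing genes' windows were also richer in G and C, with a median of 59.7% against 51.7%, and had a median of 24 CG dinucleotides against 7. A motif match is a description of letters and not of a bound site.

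Srsf9 was the gene whose groups stood apart most. The SD of its 12 group means was 0.50 and its SD within groups 0.20, a ratio of 2.55 where the median gene had 0.76. Sf3b4 (1.84) and Sf3b5 (1.57) came next, and 10 genes in all had a ratio over 1. The ratio was taken for the 61 splicing genes only, so how common such values are over all probe sets is not known here. The highest 2 readings of Srsf9 were the NOCIA baseline rats. CIA baseline rats read 7.63 and 7.82, ANE rats 7.67 and 7.62 at 34 days, PLA rats 7.31 and 7.38, MTX rats 7.04 and 7.12, MS rats 6.22 and 6.84 and NOCIA rats 6.32 and 6.53. The order at 34 days was therefore ANE, PLA, MTX, MS and NOCIA, the last pair overlapping. The other neighbours in this order did not overlap. ANE against PLA and MS against NOCIA were not tested at 34 days, and MTX differed from PLA by -0.26 ± 0.21 (adjusted p = 1.00). MS lay below PLA by a difference of -0.82 ± 0.21 (adjusted p = 0.179) and below MTX by -0.55 ± 0.21 (adjusted p = 0.327), neither of them called.

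A further test, chosen after the values were seen, asked whether the 34-day change in each CIA arm differed from that in NOCIA. For ANE the difference of changes in Srsf9 was 1.62 ± 0.30 (adjusted p = 0.0142), that is a change of -0.08 in ANE and of -1.71 in NOCIA, and it was the only 1 of 59 genes called, beside 2.86% of all probe sets (13 of 59 at an unadjusted p under 0.05, beside 15.8%). Leaving out 1 of 8 rats moved the adjusted p of Srsf9 to as much as 0.0970 and ended the call for 6 of the 8. For PLA the difference of changes in Srsf9 was 1.33 ± 0.30 (adjusted p = 0.134), for MTX 1.06 ± 0.30 (adjusted p = 0.340) and for MS 0.51 ± 0.30 (adjusted p = 0.316). Other settings called Srsf9 for PLA too, with an adjusted p of 0.0332 after quantile normalization, 0.00026 with array weights, 0.00552 without the 4 arrays of highest platelet level and 0.0035 with only the groups compared in the fit. For MTX the last 3 settings gave 0.00361, 0.0197 and 0.022. The CIA arms share their baseline rats, so they differ in this gene's change exactly as they differ at 34 days. Pairs with ANE were not tested there, and those among PLA, MTX and MS were, as given above, with none called. In the changes against NOCIA 0 genes were called by limma for these 3 arms, beside 0.00967% for PLA, 0.0242% for MTX and 0.0338% for MS. At an unadjusted p under 0.05 there were 7 genes for PLA (9.80% of all probe sets), 4 for MTX (7.50%) and 25 for MS (19.9%). Without MS rat 2, 35 genes were called for MS (29.5% of all probe sets). For MS the largest was Srsf10, with -2.04 ± 0.56 (adjusted p = 0.113), as its change was -0.73 in MS and 1.31 in NOCIA.

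**Figure D4:**
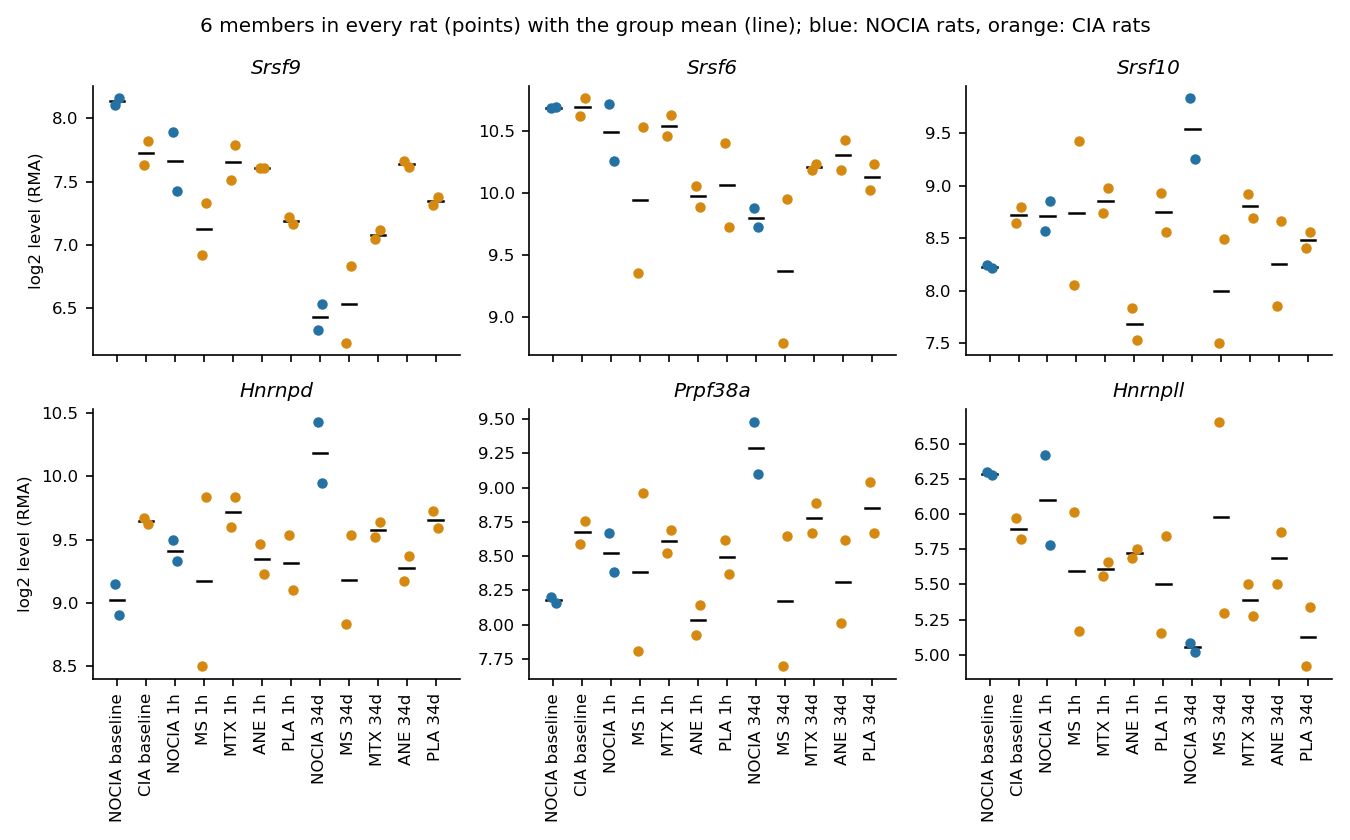
Log2 level (vertical axis) of 6 splicing factor genes in each rat (points, blue for NOCIA and orange for CIA rats) of the 12 groups (horizontal axis), with group means as lines. Srsf9 reads over 8.10 in both NOCIA baseline rats and 6.22 to 6.84 in the MS and NOCIA rats at 34 days; Hnrnpll is highest in MS 34-day rat 1 at 6.66.

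Of the 61 genes 21 had several probe sets, and these did not always move alike. Hnrnpa2b1, which binds and sorts RNA and regulates exons, differed by -0.84 ± 0.30 in NOCIA rats at its brightest probe set, while probe set 1373540_at fell from 9.06 and 8.72 to 7.26 and 7.17 (-1.67 ± 0.39, adjusted p = 0.0117). The same probe set fell in MS at 34 days (-1.48 ± 0.39, adjusted p = 0.0434), and probe set 1395561_at differed by -0.05 ± 0.39 in NOCIA. For Hnrnph3 the directions split in NOCIA rats: the brightest probe set differed by 0.38 ± 0.27 and 1395455_at fell by 1.15 ± 0.30 (adjusted p = 0.0215), and the latter also fell in MS (-1.38 ± 0.30, adjusted p = 0.0309). Hnrnpu fell at 1370171_at in both, by 0.84 ± 0.25 (adjusted p = 0.0361) in NOCIA and by 1.00 ± 0.25 (adjusted p = 0.0392) in MS, where its MS rats read 7.89 and 7.95, nearly equal, against 8.85 and 8.98. The calls in MS did not hold with array weights or with only the groups compared in the fit, where 0% of all probe sets were called. The called probe sets named here fell in both comparisons, but dimmer probe sets of Hnrnp genes did not all do so. Hnrnpdl at 1371333_at read 10.26 and 9.90 in NOCIA rats at 34 days against 9.14 and 9.29 at baseline. Which transcripts each probe set reads was not analysed here.

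Other genes rose only at a dimmer probe set in NOCIA rats. Sf3a1, a U2 snRNP protein, rose at 1389328_at from 5.97 and 6.23 to 7.39 and 7.17 (1.18 ± 0.28, adjusted p = 0.0118) and differed by -0.04 ± 0.26 at its brightest. Snrpd1 rose at 1379320_at by 1.16 ± 0.28 (adjusted p = 0.0128) and differed by 0.28 ± 0.41 at its brightest, and Prpf18, which acts in the second step of splicing, rose at 1388005_at by 0.65 ± 0.17 (adjusted p = 0.0234). In contrast all 3 probe sets of Prpf3 rose, by 0.90, 1.32 and 0.67, and all 5 of Srsf10 lay above 0, 3 of them called. Srsf6 in NOCIA rats was at -0.89 ± 0.36 at its brightest probe set and at 0.28 and 0.37 at the other 2, none called. In MS all 3 of its probe sets lay between -1.31 and -0.94. Hnrnpa1 in MS was at -0.75 and -0.70 at 2 probe sets and at 0.40 ± 0.20 at 1375612_at, none called.

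**Figure D5:**
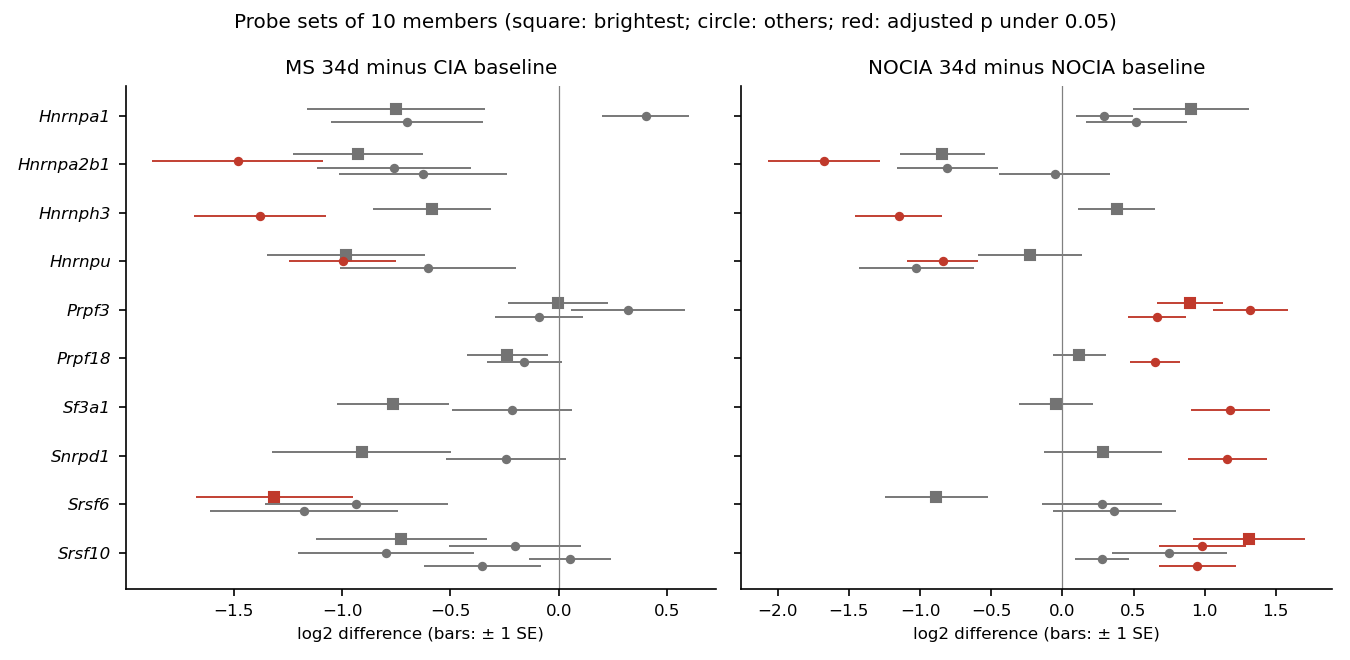
Log2 difference (horizontal axis, bars of 1 SE) at every probe set of 10 splicing factor genes in MS at 34 days against CIA baseline (left) and NOCIA at 34 days against NOCIA baseline (right); squares are the brightest probe sets, circles the others and red marks calls. Hnrnph3 shows 0.38 at its brightest and -1.15 at its other probe set on the right, and the 3 probe sets of Prpf3 are all red there.

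Arthritis itself, CIA against NOCIA at baseline, gave 0 called splicing genes by limma, beside 0.00483% of all probe sets, and 1 of 59 at an unadjusted p under 0.05, beside 3.81%. The median was 0.17 (0.01 for all probe sets) and 47 of 61 genes were above 0. Snrp genes had the highest family median (0.32) and Prpf the lowest (0.08). Srsf3, the smallest SR protein, read 6.55 and 6.37 in CIA and 5.94 and 5.52 in NOCIA (0.73 ± 0.32). Hnrnpa1, a repressor of exons, read 12.12 and 12.38 against 11.60 and 11.53 (0.68 ± 0.41), and Hnrnpd 9.67 and 9.62 against 9.14 and 8.91 (0.62 ± 0.33). These 3 were picked as the largest differences in this comparison, and none passed the limma test (adjusted p = 1.00 for each).

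At 1 hour after the start of therapy no splicing gene was called by limma in any arm, beside 0.00967% of all probe sets in MS, 0.0145% in MTX, 0.0338% in ANE, 0% in PLA and 0.00483% in NOCIA. At an unadjusted p under 0.05 there were 2 genes in MS (8.30% of all probe sets), 0 in MTX (1.24%), 4 in ANE (10.8%), 2 in PLA (6.89%) and 1 in NOCIA (3.57%). The medians were -0.35 in MS, 0.04 in MTX, -0.41 in ANE, -0.29 in PLA and 0.01 in NOCIA, where all probe sets gave -0.07, 0.01, -0.07, -0.04 and -0.01. In MS the pair of rats was far apart: Prpf4b, a kinase of the tri-snRNP, read 8.48 and 10.54, below and above the CIA baseline rats (10.05 and 10.42), and its difference of -0.72 ± 0.47 turned to 0.31 without rat 1. Without MS rat 2, 26 genes were called, all lower, where 18.8% of all probe sets were. Srsf9 was among the genes with an unadjusted p under 0.05 in MS (6.92 and 7.33), PLA (7.22 and 7.16) and NOCIA (7.89 and 7.43), with differences of -0.60, -0.54 and -0.47.

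In ANE rats at 1 hour Srsf10 read 7.84 and 7.53 against 8.65 and 8.80 in CIA baseline (-1.04 ± 0.39, adjusted p = 0.422), and Snrpd1 read 7.38 and 7.81 against 8.44 and 8.75 (-1.0 ± 0.41, adjusted p = 0.435). Both rats lay below both baseline rats in 49 of the 61 genes, and in 6823 of the 20690 probe sets tested. Without the 4 arrays of highest platelet level, ANE rat 1 among them, 6 genes were called, all lower, where 5.08% of all probe sets were called. In ANE the neutrophil markers differed between the rats (-1.89 and 2.18), as did monocyte markers (-1.52 and 0.86), while the median splicing gene was alike (-0.15 and -0.27). In PLA the largest difference was that of Hnrnpa2b1 (10.58 and 10.54 against 11.20 and 11.56, -0.82 ± 0.30, adjusted p = 0.676).

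Other genes of the splicing machinery, 112 measured from lists by function, were compared in the same way. In MS at 34 days their median was -0.54, 100 of 112 lay below 0, and 5 of 111 tested were called (4.5%, beside 6.96% of all probe sets). Rbm22 rose (0.97 ± 0.26) and 4 fell, namely Ppil1 (-1.34 ± 0.37), Sfpq (-1.32 ± 0.35), Rbm10 (-1.29 ± 0.35) and Lsm2 (-1.04 ± 0.21). None of these calls held with array weights or with only the groups compared in the fit, where 0% of all probe sets were called. In NOCIA at 34 days the median was 0.21, and 12 rose and 3 fell, which is 13.5% of the 111 beside 12% of all probe sets. Those that rose included Luc7l (1.48 ± 0.28), a U1 snRNP associated protein read at a probe set that may cross-hybridise, the survival motor neuron related Smndc1 (1.30 ± 0.24) and the helicase Dhx8 (1.18 ± 0.23), which releases spliced RNA. Lsm2, of the ring on U6 RNA, fell by 0.90 ± 0.21. Helicases and the Prp19 complex had 5 of 25 called higher and 0 lower in NOCIA, and regulators 3 higher and 2 lower of 25, where 6.31% of all probe sets were called higher and 5.66% lower. SR protein kinases had 0 of 8 by limma, with 3 at an unadjusted p under 0.05, beside 24.3% of all probe sets.

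Across the whole set, Srsf10 had the widest range over the 24 arrays (7.50 to 9.83, a range of 2.33), before U2af1 (2.25), Prpf4b (2.08), Srsf11 (2.03) and Hnrnph1 (1.97). The narrowest were Prpf40b (7.16 to 7.60, a range of 0.43), Sf3a2 (0.56), Sf3b5 (0.57), Srsf7 (0.69) and Sf3b4 (0.69), of which 3 encode parts of the U2 snRNP. Snrpe (11.23 to 12.72), Hnrnpa3, Hnrnpa1, Srsf5 and Hnrnph1 gave the brightest probe sets, and Srsf7-ps4 (2.49 to 3.61), Snrpn (3.93 to 4.92), Hnrnpll, Srsf3 and Srsf7 the dimmest; brightness of a probe set does not rank the abundance of transcripts. Of the large subunits, Prpf8, the U5 protein at the heart of the spliceosome, ran from 8.76 in MS 34-day rat 1 to 10.35 in NOCIA 34-day rat 1, and Sf3b1, which clamps the branch point, from 10.62 to 12.22 in the same 2 rats.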

How the data were processed

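PBMC RNA of 24 rats was hybridised to Affymetrix Rat Genome arrays after labelling with a 3′ kit. The authors deposited log2 values per probe set. The submitters' processing notes name RMA and the affy package (versions not given in the sources used here), while the supplementary methods name MAS5 alone for these arrays. The values were treated here as RMA values. RMA corrects background and sets all arrays to 1 distribution, so a level is relative to the other probe sets of its array.

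Groups were taken from the sample labels. limma 3.58.1 in R 4.3.3 was fitted to all 24 arrays with 1 coefficient per group (12 residual degrees of freedom), with eBayes and Benjamini-Hochberg adjustment over 20690 probe sets above the 40th percentile of their array in at least 2 arrays. Replicates are separate rats, and each SE and p-value rests on a spread pooled over all groups. The pairs were not equally close. Over the probe sets tested, the SD of rat 1 minus rat 2 ran from 0.23 in NOCIA baseline to 0.88 in MS at 1 hour, with 0.84 in MS at 34 days. With only the groups compared in the fit, the SE of Srsf9 in MS at 34 days against CIA baseline was 0.32 and not 0.21. With 2 rats against 2 an exact permutation test cannot go below 0.333, so none is given. The number of arrays limits the precision. The fit was tested on simulated data with the same spread in every group. The real pairs differed in spread, so the simulation cannot judge the MS calls. Tables and plots were made with Python 3.11.15, pandas 2.3.3 and matplotlib 3.10.9.

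The members, lists and tests were chosen with earlier results of these data known, and the 4 comparisons of 34-day changes were added after seeing the data. Genes named were those called, the 10 lowest and 5 highest in MS at 34 days, the 3 largest differences elsewhere, the 5 brightest, dimmest, widest and narrowest, a set chosen by role, and those with discordant probe sets. Hnrnpdl and Sf3b3 were named after their values were seen. Alternatives were no filter or a stricter filter (60th percentile), quantile normalization again, limma-trend with robust eBayes, array weights, a replicate block, only the groups compared, leaving out each array, and leaving out 4 arrays known from earlier results to stand apart (rat 1 of MS at 34 days and at 1 hour, ANE 1-hour rat 1 and PLA 1-hour rat 2). Medians were also taken over each gene's mean over its probe sets and over the genes that passed the filter.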

Additional observations from a re-analysis of the deposited data

Results flagged for a closer look

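The 34-day change of Srsf9 differed between ANE and NOCIA rats in a test of the difference itself, by 1.62 ± 0.30 on the log2 scale (limma adjusted p = 0.0142). Srsf9 read 8.11 and 8.16 in NOCIA baseline rats and 6.32 and 6.53 in NOCIA rats at 34 days, and 7.63 and 7.82 in CIA baseline rats and 7.67 and 7.62 in ANE rats at 34 days. With 1 of the 8 rats left out the difference lay between 1.52 and 1.73 and the adjusted p between 0.0290 and 0.0970, and the call was lost for 6 of 8 rats. It was kept without NOCIA 34-day rat 2 or without ANE 34-day rat 2. The comparison was added after the values were seen. Groups of 2 rats are too small to look for single outlying samples.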

How the results depend on the processing

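Of 232 alternative counts of called genes over the 18 comparisons, 190 stayed within 1.5 times the reported count and 42 did not. The share of all probe sets called in the same setting is given in brackets for the settings named first. With array weights the counts were 4 (4.93%) for CIA against NOCIA at baseline, 0 (0%) for MS, 1 (4.88%) for MTX and 2 (8.33%) for PLA at 34 days against CIA baseline, and 30 (34.4%) for NOCIA at 34 days. With only the groups compared in the fit they were 1 (3.67%) for CIA against NOCIA, 0 (0%) for MS and 26 (33.8%) for NOCIA at 34 days. Without the 4 arrays that stood apart they were 0 (0.725%) for MS and 26 (30.4%) for NOCIA at 34 days and 6 (5.08%) for ANE at 1 hour, and with no filter MS at 34 days had 1 (3.68%), as Srsf6 had an adjusted p of 0.0513. For the difference of 34-day changes from NOCIA, array weights gave 10 for MTX (8.92%), 25 for ANE (23.4%) and 13 for PLA (16.4%), only the groups compared 6 (5.57%), 21 (20.8%) and 14 (14.5%), leaving out the 4 arrays 2 for MS (3.13%), 4 for MTX (5.65%), 24 for ANE (18.3%) and 9 for PLA (9.2%), and quantile normalization 3 for ANE (5.04%) and 1 for PLA (0.121%). Leaving out 1 rat at a time gave 0 to 42 for MS and 1 to 2 for NOCIA at 34 days, 0 to 35 for MS against PLA, 0 to 36 for MS against MTX, 0 to 26 for MS at 1 hour, and 0 to 35 for MS and 0 to 1 for ANE in the difference of changes. The causes were not tested.

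Of 126 alternative medians 113 moved by less than the spread between replicates. Without the 4 arrays the median was -0.15 for MS at 34 days and -0.095 for PLA at 1 hour, and with quantile normalization -0.054 for PLA at 34 days. Leaving out 1 rat gave medians of 0.11 to 0.22 for CIA against NOCIA, -1.05 to -0.15 for MS, -0.35 to -0.14 for ANE and -0.16 to -0.043 for PLA at 34 days, -0.93 to -0.10 for MS against PLA, -0.96 to -0.11 for MS against MTX, -0.47 to -0.095 for PLA and -0.095 to 0.17 for NOCIA at 1 hour.

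Among named genes the sign turned for Prpf3 in MS at 34 days (0.24 with quantile normalization, 0.30 without the 4 arrays, -0.30 to 0.30 without 1 rat), Hnrnpll there (-0.60 without the 4 arrays, -0.60 to 0.76 without 1 rat), Srsf7 there (-0.062 to 0.30 without 1 rat) and Prpf4b in MS at 1 hour (0.31 without the 4 arrays, -1.75 to 0.31 without 1 rat). With the replicate number as a block, 2 genes were called in MS and 7 in NOCIA at 34 days, and the block changed no count in the other comparisons. The numbers do not pair the rats: over 66 pairs of groups the correlation of same-numbered deviations ran from -0.76 to 0.80. Probe sets near the floor of the arrays carry little information.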
